A study of Mus musculus with 6 samples.

Results

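Tau, encoded by Mapt, and 9 other microtubule-associated proteins (MAPs) were followed in the prefrontal cortex (PFC) of WT mice and of a tauopathy model. The 10 genes were Mapt, Map1a, Map1b, Map2, Map4, Map6, Map7, Map9, Dcx and Dclk1, chosen by their gene symbols among the 54429 genes counted in each library. No threshold on a value decided which gene was a member, but the list was drawn up with earlier results of these libraries known. All 10 genes passed the filter on low counts, which left 20409 genes for testing. The 6 RNA-seq libraries came from 3 groups of 2 mice each, described below, and all mice were 6 months old by the labels.

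WT mice were of the C57BL/6 x C3H background and received vehicle, saline with DMSO. P301S Tau mice carry the PS19 transgene, a human tau with the P301S mutation under the mouse prion protein (Prnp) promoter, in addition to their own Mapt gene, and received the same vehicle. The third group was P301S Tau mice injected with UNC0642, an inhibitor of the histone H3K9 methyltransferases EHMT1 and EHMT2, once daily on consecutive days. Tissue was taken the day after the last injection. Male and female littermates were used in the study. The libraries of a group were biological duplicates of bulk tissue by the study's methods, and each was taken here as a different mouse. No WT mice treated with UNC0642 were among these libraries. P-values rest on the spread between the 2 mice within a group, pooled over the 3 groups and drawn toward that of all tested genes. The 3 comparisons share libraries pairwise.

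Microtubules are polymers of tubulin that serve as tracks for transport and as the scaffold of axons and dendrites. MAPs bind along their wall, stabilize or bundle them and compete with motor proteins. Tau is enriched in axons and MAP2 in dendrites. MAP1A and MAP1B are large proteins cut into heavy and light chains, with MAP1B prominent in growing neurons and MAP1A in mature ones. MAP4 is the widely expressed relative of tau and MAP2. MAP6 makes microtubules resistant to cold, MAP7 recruits the motor kinesin-1, and MAP9 was described as a protein of the mitotic spindle and of cilia. Doublecortin (Dcx) and doublecortin-like kinase (Dclk1) bind between protofilaments, and Dcx marks migrating, immature neurons. In tauopathies tau leaves the microtubule and aggregates.

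The counts summed to 17005664 to 28972176 per library, and the 10 genes took 0.755% to 0.861% of them. Expression is given as CPM, counts scaled to the TMM-corrected library size. A floor of 3 counts corresponds to 0.104 to 0.176 CPM and covers counting error only, and every value of the 10 genes was far above it. Markers of cortical excitatory neurons were present in every library, with a sum over 6 genes of 1177 to 1422 CPM. Prnp, whose promoter drives the transgene, was at 1652 CPM in the library labelled WT replicate 1 and at 873 CPM in WT replicate 2. It was at 1552 and 1470 CPM in the Tau libraries and at 1548 and 1694 CPM in the UNC0642 libraries. The library labelled WT replicate 1 thus had the Prnp level of the transgenic libraries, and WT replicate 2 alone was lower. These counts are those assigned to the mouse Prnp gene, and any transgene reads among them cannot be told apart. They leave the label of WT replicate 1 in doubt without settling it. The calls of both comparisons with WT are given with and without WT replicate 1. Xist was at 317, 191 and 235 CPM in WT replicate 2 and both Tau libraries and under 1 CPM in WT replicate 1 and both UNC0642 libraries, which had the Y-linked Ddx3y at up to 101 CPM, against 0.644 CPM at most in the other 3. The UNC0642 and Tau groups therefore differed in sex as well as treatment, and the 2 cannot be told apart in their comparison. The WT group held 1 library of each sex pattern, so sex was also unevenly spread in both comparisons with WT.

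Promoter sequences are shown for the genes on which the results turn. Dcx was the member with the largest difference between groups, Map1a was called lower in UNC0642-treated Tau mice than in WT, and the Prnp promoter drives the transgene. Each is RefSeq sequence of GRCm38.p6 from 250 bases before to 50 after a transcription start, 5′ to 3′ on the strand of the gene. Capitals mark matches on either strand. The motifs searched were the GC box, with the letters GGGCGG. The TATA box was searched as TATAAA. The half-site of the cAMP response element (CRE) was searched as TGACG, and matches to different motifs did not overlap in these windows, while 2 GC boxes of Map1a share 1 base.
Dcx (chrX:143933170-143933469, minus strand): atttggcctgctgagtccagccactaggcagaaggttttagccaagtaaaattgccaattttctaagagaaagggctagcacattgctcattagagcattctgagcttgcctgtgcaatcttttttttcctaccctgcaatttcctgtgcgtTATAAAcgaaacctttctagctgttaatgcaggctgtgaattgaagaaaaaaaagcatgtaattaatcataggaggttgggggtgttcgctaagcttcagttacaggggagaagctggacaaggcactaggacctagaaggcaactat
Map1a (chr2:121289352-121289651, plus strand): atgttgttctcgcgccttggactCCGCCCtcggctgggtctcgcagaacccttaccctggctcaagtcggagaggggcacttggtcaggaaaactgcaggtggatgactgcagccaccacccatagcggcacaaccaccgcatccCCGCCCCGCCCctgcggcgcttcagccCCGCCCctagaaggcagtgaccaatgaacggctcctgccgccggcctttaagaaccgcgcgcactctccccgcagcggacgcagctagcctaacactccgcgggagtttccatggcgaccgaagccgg
Prnp (chr2:131909678-131909977, plus strand): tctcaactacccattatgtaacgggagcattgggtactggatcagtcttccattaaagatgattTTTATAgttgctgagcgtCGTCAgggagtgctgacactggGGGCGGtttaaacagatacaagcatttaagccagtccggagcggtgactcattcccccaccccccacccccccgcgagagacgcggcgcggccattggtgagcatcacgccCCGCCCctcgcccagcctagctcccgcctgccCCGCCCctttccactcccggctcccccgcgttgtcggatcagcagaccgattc
The Dcx window, of the upstream-most start listed, had 43% G and C, 3 CpG and 1 TATA box. The Map1a window had 65.7% G and C, 27 CpG and 4 GC boxes, and that of Prnp had 60% G and C, 22 CpG, 3 GC boxes, 1 TATA box and 1 CRE half-site. Among all RefSeq promoters of this length the median was 52.7% G and C with 7 CpG, and 31.4% had no more CpG than Dcx. A GC box was found in 35.7% of them, a TATA box in 13.6% and a CRE half-site in 20.8%. Entries were found for 8 of the 10 members, all but Mapt and Map6. These matches describe the letters of the windows and say nothing of factor binding.

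Compared with WT mice, P301S Tau mice had 0.506-fold the Dcx mRNA, and no other member was called in this comparison. The call rule asked for an unadjusted p below 0.05 together with a 1.2-fold difference or more in edgeR's quasi-likelihood fit over all genes. By this rule 1 of the 10 members was lower and 0 were higher, where 6.1% of all tested genes were called lower and 3.72% higher. With Benjamini-Hochberg adjustment over all genes the same member, Dcx, remained, among the 0.0343% of genes that were lower at an adjusted p under 0.05. The median log2 fold change of the 10 members was 0.10, against 0.00 over all genes, and 8 of the 10 were above 0. The libraries of the 2 groups did not overlap for 3 members that were higher in Tau, Mapt, Map2 and Dclk1, and for 2 that were lower, Map1a and Dcx. Over all genes 21.9% and 21.4% did not overlap in these directions.

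In UNC0642-treated compared with vehicle-treated P301S Tau mice, Map1b alone was called, and lower. Among all genes 3.95% were called lower and 3.73% higher. No member had an adjusted p under 0.05 in edgeR's test with the filter on low counts, as did 0.0098% of all genes in the lower direction, and 2 members, Map1b and Map6, had an unadjusted p under 0.05. The median of the members was -0.08 on the log2 scale, and 8 of 10 were below 0. Libraries did not overlap for Map1b, Map4 and Map6, all lower with UNC0642, and for no member in the higher direction, where 20.9% and 20.4% of all genes did not overlap lower and higher.

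Between UNC0642-treated P301S Tau mice and WT mice, Dcx and Map1a were called, both lower, where 5.69% of all genes were called lower and 3.77% higher. Dcx was again among the 0.0294% of genes lower at an adjusted p under 0.05. The median of the members was -0.01, with 5 above and 5 below 0. Libraries did not overlap for Map2, Map9 and Dclk1, which were higher, and for Map1a, Map1b, Map6 and Dcx, which were lower, against 22.1% and 22.3% of all genes. Leaving out the library labelled WT replicate 1 left WT with 1 library, assumed to vary like the other groups. The same holds for every fit below that leaves 1 library in a group. The remaining library, WT replicate 2, had the Xist level of females, while both UNC0642 libraries had the Ddx3y level of males. UNC0642 against WT then coincided with sex and cannot be told apart from it. Without WT replicate 1, 21378 genes were tested. Mapt then joined Dcx as called in Tau against WT, higher, and joined Dcx and Map1a in UNC0642 against WT. The background in these fits was 4.38% higher and 4.64% lower for Tau, and 4.27% higher and 4.76% lower for UNC0642. The log2 fold changes of the members not called there lay between -0.26 (Map1a) and 0.16 (Dclk1) for Tau and between -0.24 (Map6) and 0.15 (Dclk1) for UNC0642.

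**Figure D1:**
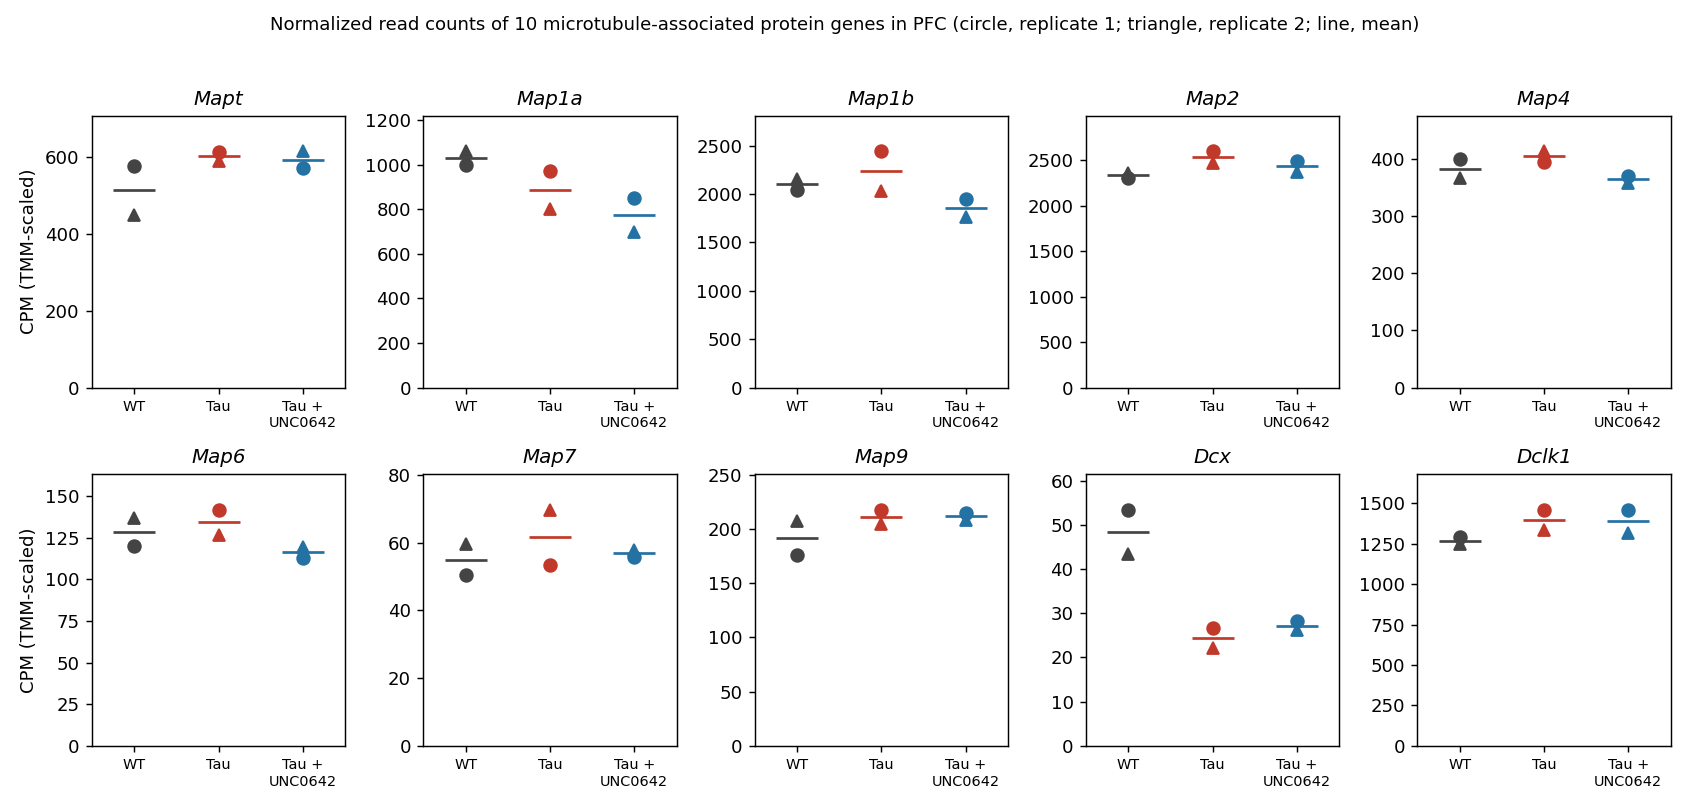
Normalized counts (CPM, TMM-scaled, linear axes from 0) of the 10 genes in 2 WT, 2 P301S Tau and 2 UNC0642-treated P301S Tau libraries, with circles for replicate 1, triangles for replicate 2 and lines for the group mean. Dcx was at 43.4 and 53.5 CPM in WT and at 22.2 to 28.2 CPM in the other 4 libraries, while the other genes differed by less.

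**Figure D2:**
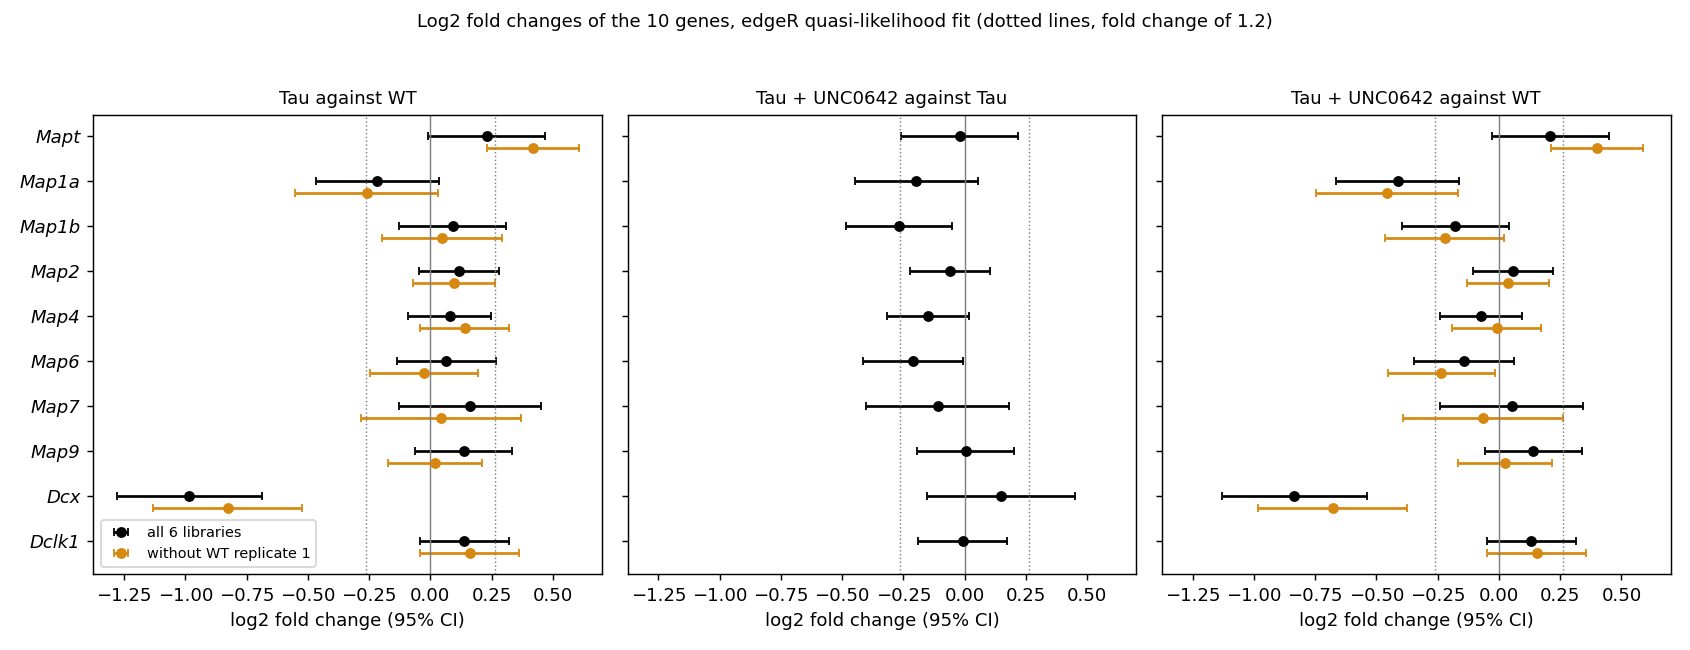
Log2 fold changes with 95% confidence intervals from edgeR's quasi-likelihood fit for the 10 genes in the 3 comparisons, with all 6 libraries (black) and without the library labelled WT replicate 1 (orange); dotted lines mark a fold change of 1.2. The interval of Dcx lay below the lower line in both comparisons with WT, in both fits, and that of Mapt moved to above 0 without WT replicate 1.

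Mapt (chr11:104231390-104332090, plus strand, GRCm38) encodes tau itself. Its level was 576 CPM in the library labelled WT replicate 1 and 449 CPM in WT replicate 2, 613 and 589 CPM in the Tau libraries, and 571 and 614 CPM with UNC0642. WT replicate 2 was the lowest of the 6 libraries, and WT replicate 1 lay within the range of the transgenic ones. The fold change of Tau against WT was 1.17 (95% CI 0.994 to 1.38, adjusted p = 0.418 by edgeR). Without WT replicate 1 it was 1.34 (95% CI 1.17 to 1.52, adjusted p = 0.158 by edgeR), a log2 fold change of 0.42 ± 0.084 (SE), and called by the unadjusted rule. Prnp behaved likewise, with a log2 fold change of 0.26 ± 0.22 (SE) with all libraries and 0.79 ± 0.086 (SE, adjusted p = 0.0183 by edgeR) without WT replicate 1. The gap of Mapt between the 2 WT libraries, 0.36 on the log2 scale, was the second largest within a group among the 10 genes. UNC0642-treated and vehicle-treated Tau mice had a log2 fold change of -0.02 ± 0.11 (SE, adjusted p = 0.975 by edgeR), with an interval of 0.835 to 1.16-fold. The counts are per mouse gene, so reads of mouse Mapt and of the human transgene, which resembles it, cannot be told apart.

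**Figure D3:**
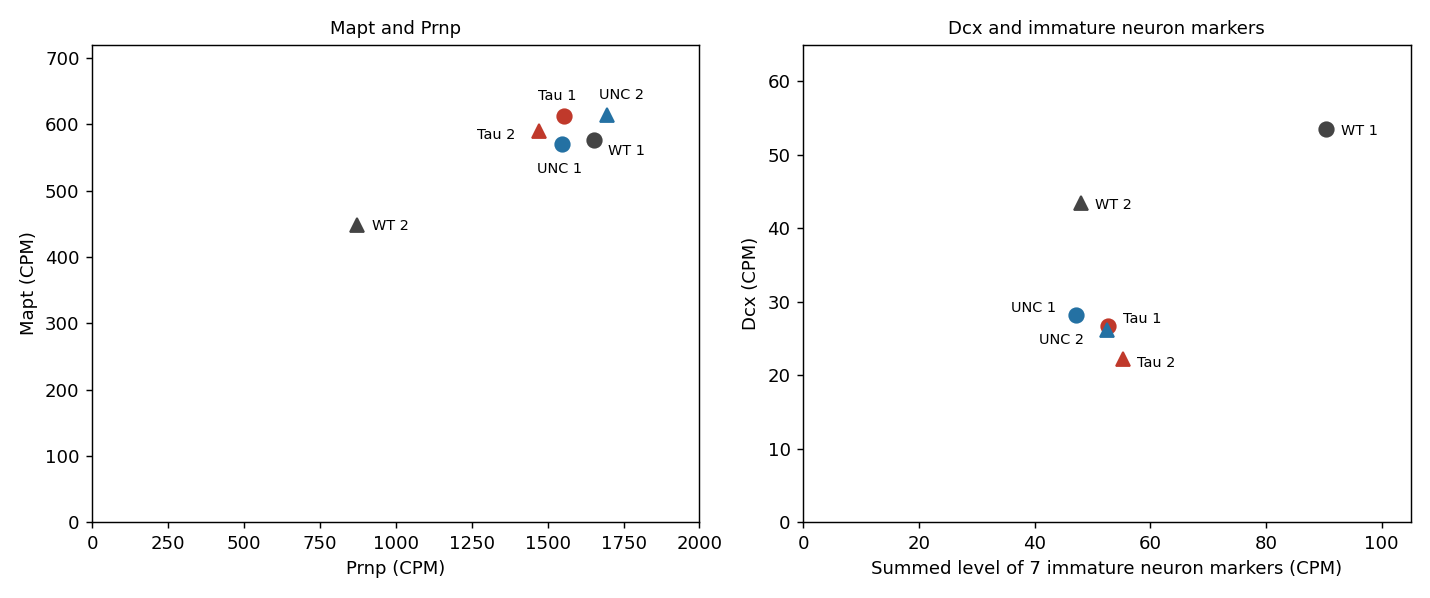
Left, Mapt against Prnp, and right, Dcx against the summed level of 7 immature neuron markers, both in CPM on linear axes from 0, with 1 point per library (UNC, UNC0642-treated P301S Tau). In the left panel 5 libraries, among them WT 1, sit together, apart from WT 2 with 449 CPM of Mapt and 873 CPM of Prnp; in the right panel WT 1 has the highest marker sum, 90.5 CPM, and WT 2 has one like the transgenic libraries.

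The genes whose pattern was most like that of Mapt were taken by the root mean square difference of log2 CPM, each gene centred over the 6 libraries, among 20408 genes. They were Trappc5 (0.0329), Higd1a (0.0351), Gm11273 (0.0408), Gm12696 (0.0414) and Ndufc2 (0.0417). Like Mapt they were lowest in WT replicate 2, which follows from how they were chosen. Trappc5 was at 29.5 and 23.4 CPM in WT and between 28.2 and 31.2 CPM in the other libraries. Prnp came at rank 6347 with a difference of 0.184, and the gap between its WT libraries was wider than that of Mapt. Among the members Dclk1 was nearest, at rank 2018, and Dcx the farthest, at rank 17224. The measure is a description over 6 libraries.

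Dcx (chrX:143855842-143933311, minus strand, GRCm38) encodes doublecortin, needed for neuronal migration in the developing cortex. Its level was 53.5 and 43.4 CPM in WT replicates 1 and 2, 26.7 and 22.2 CPM in the Tau libraries and 28.2 and 26.2 CPM with UNC0642. Both libraries labelled WT were above all 4 transgenic libraries, and the Tau and UNC0642 libraries overlapped. The highest was WT replicate 1, the library with the Prnp level of the transgenic ones. The group means were 48.5 ± 7.12 CPM in WT, 24.4 ± 3.19 CPM in Tau and 27.2 ± 1.40 CPM with UNC0642 (SD, n = 2 each). Relative to WT, Dcx fell to 0.506-fold in Tau mice (95% CI 0.412 to 0.621, adjusted p = 0.0363 by edgeR's quasi-likelihood test). The log2 fold change was -0.98 ± 0.13 (SE), and with the 2 compared groups fitted alone the adjusted p was 0.0838 by edgeR. In UNC0642-treated Tau mice it was -0.83 ± 0.13 against WT (SE, adjusted p = 0.0450 by edgeR). Between UNC0642-treated and untreated Tau mice the log2 fold change was 0.15 ± 0.14 (SE, adjusted p = 0.794 by edgeR), with an interval of 0.900 to 1.37-fold. Without WT replicate 1 the differences from WT were -0.83 ± 0.14 for Tau (SE, adjusted p = 0.0956 by edgeR) and -0.68 ± 0.14 for UNC0642 (SE, adjusted p = 0.114 by edgeR), so that both remained called but passed the adjusted threshold no longer.

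Since Dcx is expressed by immature neurons, fewer such cells and less Dcx mRNA per cell cannot be told apart in bulk tissue. A list of 7 other immature neuron markers (Sox11, Igfbpl1, Dlx1, Dlx2, Sp8, Sp9 and Cd24a) summed to 90.5 CPM in WT replicate 1, 48.0 CPM in WT replicate 2, 52.7 and 55.2 CPM in Tau and 47.2 and 52.6 CPM with UNC0642. Sp8, a transcription factor of immature interneurons, was at 15.7 CPM in WT replicate 1 and at 1.54 to 2.50 CPM elsewhere, and Dlx1 was at 41.2 CPM against 20.9 to 23.7 CPM. Igfbpl1 had no counts in UNC0642 replicate 1. Sox11 went the other way, at 16.3 and 16.7 CPM in WT and 17.2 to 22.6 CPM in the other libraries. With all libraries, 1 of the 7 markers was called lower in Tau than in WT and 5 were called lower with UNC0642 than in WT. Over all genes 6.1% and 5.69% were called lower in these comparisons. Each of the called markers had its highest level in WT replicate 1, so these calls lean on that library. Without WT replicate 1 the median log2 fold change of the 7 markers turned from -0.43 to 0.41 in Tau against WT. In UNC0642 against WT it moved from -1.29 to -0.10. In WT replicate 2 the marker sum lay within the range of the transgenic libraries, 47.2 to 55.2 CPM, while its Dcx level exceeded theirs. Of 4 endothelial markers 3 were called lower in Tau than in WT and 2 with UNC0642 than in WT, 3 and 1 without WT replicate 1, where 6.1% and 5.69% of all genes were called lower with all libraries, with a sum of 145 to 153 CPM in WT, 102 to 111 CPM in Tau and 106 to 135 CPM with UNC0642, none of them at 0. The part of these cell markers in the Dcx difference was not tested. Dcx is X-linked, and it was low both in the Tau libraries, which had the Xist level of females, and in the UNC0642 libraries, which had the Ddx3y level of males. The part of sex in the Dcx level was not tested.

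Dclk1 (chr3:55242364-55539068, plus strand, GRCm38), a kinase with the same tubulin-binding doublecortin domains, did not share this difference. It was at 1290.0 and 1248 CPM in WT, 1457 and 1337 CPM in Tau and 1461 and 1318 CPM with UNC0642. The transgenic libraries lay slightly above both WT libraries, with log2 fold changes of 0.14 ± 0.082 (SE, adjusted p = 0.514 by edgeR) for Tau and 0.13 ± 0.082 (SE, adjusted p = 0.556 by edgeR) for UNC0642. Its interval for Tau against WT, 0.971 to 1.25-fold, does not meet that of Dcx. The longest run of bases that transcripts of Dcx and Dclk1 share exactly was 23, and the longest between any members was 26, for Map1a and Map1b. Dclk2, the third gene of the family and not a member, was at 80.1 and 59.7 CPM in WT, 56.0 and 49.98 CPM in Tau and 53.8 and 55.0 CPM with UNC0642. It was called lower in Tau than in WT, with a log2 fold change of -0.40 ± 0.13 (SE, adjusted p = 0.302 by edgeR), and lower with UNC0642 than in WT, at -0.36 ± 0.13 (SE, adjusted p = 0.316 by edgeR).

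Map1a (chr2:121289600-121310832, plus strand, GRCm38) was at 1000.7 and 1060 CPM in WT, 972 and 801 CPM in Tau and 849 and 698 CPM with UNC0642. Both WT libraries were the highest of the 6, and UNC0642 replicate 2 was the lowest. The log2 fold change was -0.22 ± 0.11 in Tau against WT (SE, adjusted p = 0.459 by edgeR) and -0.20 ± 0.11 in UNC0642 against Tau (SE, adjusted p = 0.640 by edgeR), neither called. Against WT, UNC0642-treated Tau mice had 0.751-fold the level (95% CI 0.631 to 0.893), a log2 fold change of -0.41 ± 0.11 (SE, adjusted p = 0.205 by edgeR). Over the other fits of all or the compared libraries its adjusted p ran from 6.87e-06 by edgeR with no filter to 0.248 with the replicate block, and was 0.0251 by the DESeq2 Wald test. Without WT replicate 1 the log2 fold change was -0.46 ± 0.13 (SE, adjusted p = 0.247 by edgeR). Without UNC0642 replicate 2 it was -0.28 and no longer called. The Tau against WT difference became called, at -0.36, without Tau replicate 1, and that of UNC0642 against Tau became called without Tau replicate 2, at -0.33, or without UNC0642 replicate 1, at -0.35. Map1a shares 272 exonic bases, 2.24% of its own, with Ppip5k1 on the opposite strand, and the strand setting of the counting was not given in the sources used here.

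Map1b (chr13:99421446-99516540, minus strand, GRCm38) was at 2039 and 2160 CPM in WT, 2441 and 2028 CPM in Tau and 1948 and 1765 CPM with UNC0642. Tau replicate 1 was the highest library, Tau replicate 2 lay with the WT libraries, and both UNC0642 libraries were the lowest. UNC0642 against Tau had a log2 fold change of -0.27 ± 0.098 (SE, adjusted p = 0.480 by edgeR), a fold change of 0.831 that only just passed the fold threshold. Its adjusted p was 0.0140 by edgeR with no filter and 0.421 to 0.622 in the other fits of all or the compared libraries. It was not called without Tau replicate 1, at -0.13, or without UNC0642 replicate 2, at -0.20. Against WT the log2 fold changes were 0.09 ± 0.098 in Tau (SE, adjusted p = 0.739 by edgeR) and -0.18 ± 0.098 with UNC0642 (SE, adjusted p = 0.504 by edgeR). On the log2 scale replicate 1 exceeded replicate 2 by 0.27 in Tau and 0.14 with UNC0642 for Map1b, and replicate 1 was likewise the higher in both transgenic groups for Map1a, Map2, Map9, Dcx and Dclk1.

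Map2 (chr1:66175273-66442583, plus strand, GRCm38), the dendritic MAP, varied least. It was at 2307 and 2367 CPM in WT, 2601 and 2474 CPM in Tau and 2491 and 2377 CPM with UNC0642. Both WT libraries were the lowest, but the distance was small, with a fold change of 1.09 for Tau against WT (95% CI 0.970 to 1.22, adjusted p = 0.537 by edgeR). For UNC0642 against Tau the log2 fold change was -0.06 ± 0.073 (SE, adjusted p = 0.861 by edgeR), with an interval of 0.857 to 1.07-fold.

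Map4 (chr9:109931460-110083955, plus strand, GRCm38) was at 400.02 and 366 CPM in WT, 396 and 414 CPM in Tau and 370.4 and 358 CPM with UNC0642. The UNC0642 libraries lay below the Tau libraries and overlapped those of WT. The log2 fold changes were 0.08 ± 0.075 in Tau against WT (SE, adjusted p = 0.703 by edgeR) and -0.15 ± 0.076 in UNC0642 against Tau (SE, adjusted p = 0.598 by edgeR). Neither was called.

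Map6 (chr7:99267447-99337137, plus strand, GRCm38) was at 120.3 and 137 CPM in WT, 142 and 127 CPM in Tau and 113 and 119 CPM with UNC0642. The UNC0642 libraries were the lowest of the 6. UNC0642 against Tau had a log2 fold change of -0.21 ± 0.092 (SE, adjusted p = 0.552 by edgeR), which passed the unadjusted p but fell short of the fold threshold. It passed that threshold without Tau replicate 2, at -0.29. Against WT it was 0.07 ± 0.091 in Tau (SE, adjusted p = 0.804 by edgeR), and its sign turned to -0.03 without WT replicate 1.

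Map7 (chr10:20148471-20281590, plus strand, GRCm38) was at 50.3 and 59.5 CPM in WT, 53.4 and 69.8 CPM in Tau and 55.9 and 58.0 CPM with UNC0642. Tau replicate 2 stood above the other 5 libraries, and its gap to Tau replicate 1, 0.39 on the log2 scale, was the largest within a group among the 10 genes. Tau replicate 2 also had the highest sum of 10 oligodendrocyte markers, 5794 CPM against 1526 to 3093 CPM in the other libraries, and of 6 striatal neuron markers, 166 CPM against 63.6 to 78.2 CPM, none of them at 0 in any library. WT replicate 1, next highest in oligodendrocyte markers at 3093 CPM, had the lowest Map7 level, 50.3 CPM. WT replicate 2, lowest in these markers at 1526 CPM, had 59.5 CPM of Map7. The transgenic libraries ranked in the same order by both. The part of the oligodendrocyte and striatal markers in the Map7 level was not tested. With all libraries the log2 fold change was 0.16 ± 0.13 in Tau against WT (SE, adjusted p = 0.646 by edgeR). With Tau replicate 2 as the sole Tau library it was called, at 0.35 against WT, and UNC0642 against Tau was called at -0.29. Map7 shares 332 exonic bases, 4.18% of its own, with the antisense gene Gm48249, which had 3 to 19 counts.

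Map9 (chr3:82358044-82395268, plus strand, GRCm38) was at 177 and 208 CPM in WT, 218 and 204 CPM in Tau and 215 and 208 CPM with UNC0642. WT replicate 1 was the lowest library, and the other 5 lay between 204 and 218 CPM. The log2 fold change was 0.14 ± 0.089 in Tau against WT (SE, adjusted p = 0.565 by edgeR), and 0.02 ± 0.086 without WT replicate 1 (SE, adjusted p = 0.950 by edgeR). For UNC0642 against WT it was 0.14 ± 0.090 (SE, adjusted p = 0.568 by edgeR), and without WT replicate 2 it was 0.26 and called.

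To compare levels between genes, CPM was divided by the length of all annotated exons of a gene. Map2 (148 CPM per kb) and Map1b (130.2 CPM per kb) were the highest of the 10 in the mean over 6 libraries, followed by Dclk1 (88.4), Mapt (75.5) and Map1a (73.7). Map9 (30.8), Map4 (25.4), Map6 (13.8) and Map7 (7.29) came next, and Dcx was the lowest at 2.64 CPM per kb, 56.2-fold below Map2. The library ranges of Map2 and Map1b overlapped, as did those of Mapt and Map1a and of Map9 and Map4, and all other neighbours in this order were apart. By the same measure Map2 stood at the percentile 99.1 of 20229 tested genes with an exon length and Dcx at 47.6. The exon length counts every annotated isoform, so a gene that uses short isoforms in PFC is understated.

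**Figure D4:**
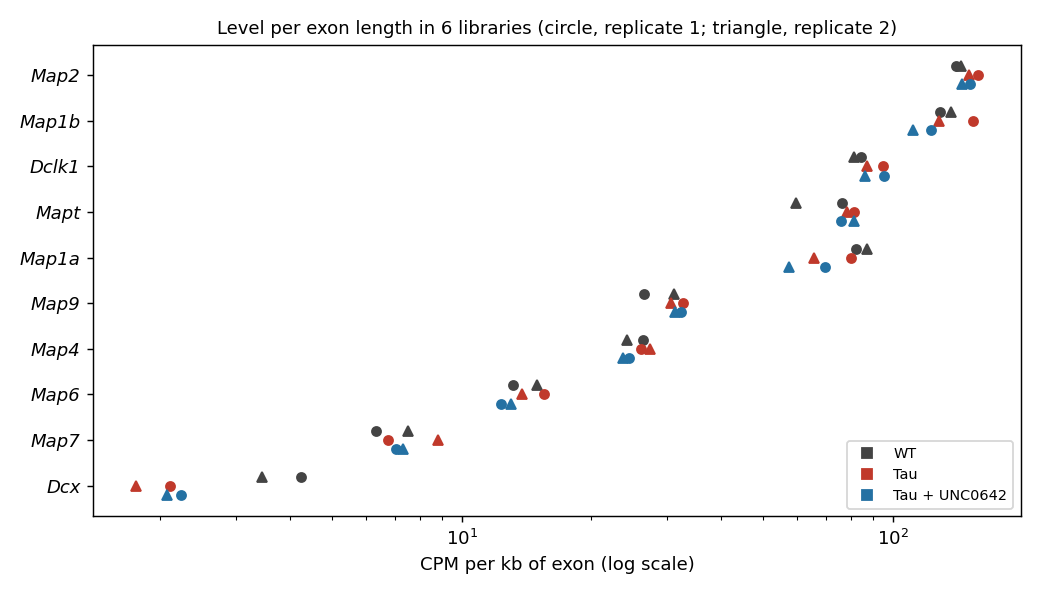
Level of the 10 genes in CPM per kb of annotated exon on a log axis, 1 point per library, with circles for replicate 1 and triangles for replicate 2 and colours for the 3 groups. The order runs from Map2 (mean 148) to Dcx (mean 2.64), and Dcx shows the widest distance of the WT libraries from the other 4.

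Of 51 further genes of microtubule binding and dynamics, 49 were tested. In Tau against WT 2 were called higher and 1 lower, in UNC0642 against Tau 0 were higher and 6 lower, and in UNC0642 against WT 1 was higher and 5 lower. The shares over all genes were 3.72% higher and 6.1% lower, 3.73% and 3.95%, and 3.77% and 5.69% in these comparisons, so that the lists lay near or below the background in Tau against WT. In both UNC0642 comparisons the lists lay above it in the lower direction and below it in the higher one, which was not tested. Their median log2 fold changes were 0.07, -0.10 and -0.06, and no gene of these lists had an adjusted p under 0.05 in edgeR's test in any comparison. Among 9 tested relatives of the MAP families Dclk2 alone was called, in both comparisons with WT, and without WT replicate 1 it was not called in Tau against WT. Over all 5 lists, leaving out that library left 2 genes called higher and 0 lower in Tau against WT, both higher ones among the crosslinkers and stabilizers, and 0 higher and 5 lower in UNC0642 against WT. Of 10 minus-end and severing proteins, Katna1, the catalytic subunit of the severing enzyme katanin, was higher with UNC0642 than in WT, at 0.34, a call lost without WT replicate 1, and Camsap3, which caps minus ends, was lower, at -0.48. Of 5 destabilizers Stmn4, a tubulin-sequestering stathmin, was higher in Tau than in WT, at 0.27, and lower with UNC0642 than in Tau, at -0.29, and without WT replicate 1 no destabilizer was called against WT. Of 7 crosslinkers and stabilizers Tppp3, a tubulin polymerization promoter, was higher in Tau than in WT, at 0.48. Both Stmn4, at 114 and 129 CPM in the Tau libraries, and Tppp3, at 22.5 and 31.7 CPM, were highest in Tau replicate 2, the library with the highest oligodendrocyte and striatal marker sums, whose part in these differences was not tested. Dpysl5, of the collapsin response mediator family, was lower with UNC0642, at -0.65 against Tau and, with WT replicate 1 included, at -0.39 against WT.

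Of 18 plus-end tracking proteins, the longest of the lists, which ride on growing microtubule ends or are related to proteins that do, 4 were called lower and 0 higher in UNC0642 against Tau, where 3.95% of all genes were called lower. The median over the list was -0.11, and no test compared it with the other lists. Clip3, a CAP-Gly protein of the Golgi and endosomes, was at 113 and 149.6 CPM in WT, 149 and 128 CPM in Tau and 97.6 and 62.2 CPM with UNC0642. Its log2 fold change was -0.80 ± 0.19 against Tau (SE, adjusted p = 0.327 by edgeR) and -0.72 ± 0.19 against WT (SE, adjusted p = 0.192 by edgeR), and both UNC0642 libraries lay below the other 4. Mapre3, the neuronal end-binding protein EB3, was lower by both comparisons, at -0.30 against Tau and -0.40 against WT. Nav1, a neuron navigator, was at -0.33 and Mtus1 at -0.45 against Tau. Mtus1 was at 46.8 CPM in Tau replicate 2 and at 27.9 to 34.2 CPM in the other libraries. All calls of UNC0642 against Tau coincide with the sex difference between the UNC0642 and Tau groups.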

How the data were processed

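RNA of bulk PFC tissue was depleted of ribosomal RNA and made into stranded libraries. Per the study's methods and the labels, the authors trimmed reads with Cutadapt, aligned them with TopHat2 (genome build mm10 in the submitters' processing notes) and deposited counts per gene from featureCounts, without normalization. Tool versions and the strand setting were not given in the sources used here. In 2 of the files 26 gene names appeared as dates, none of them a member, and these rows were joined by position.

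The deposited counts were analysed with edgeR 4.0.16 in R 4.3.3. filterByExpr (minimum count 10, minimum total 15) kept 20409 genes, TMM factors were 0.966 to 1.04, and glmQLFit and glmQLFTest were run on all 6 libraries with 1 mean for each group, leaving 3 residual degrees of freedom at a biological coefficient of variation of 12.3%. The call rule, unadjusted p below 0.05 with a 1.2-fold difference or more, is that of the study. Benjamini-Hochberg adjustment ran over the full set of tested genes. SE and 95% intervals come from the fit, and SDs from 2 libraries. The fit was tested on simulated counts. Positions and exon lengths come from the GENCODE M21 annotation of GRCm38. Alternatives were DESeq2 1.42.0, limma-voom (limma 3.58.1), other scaling, filters and thresholds, the compared groups alone, a replicate block, and leaving out each library. The members and gene lists were chosen with earlier results of these data known. All members are named, with Prnp, every called gene of the microtubule lists and the 5 genes nearest to Mapt. Sp8, Dlx1, Igfbpl1 and Sox11, Xist and Ddx3y were named after their values were seen.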

Additional observations from a re-analysis of the deposited data

How the results depend on the processing

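Alternatives changed one choice at a time. For Tau against WT, 1 member was called, 2 with library size alone as scaling (Map1a with Dcx), and 1 to 3 when libraries were left out in turn. For UNC0642 against Tau, 1 was called, and 0 with adjusted p-values, a fold change of at least 1.5, the DESeq2 Wald test, DESeq2 size factors, at least 10 counts in every library or library size alone, and 0 to 3 when libraries were left out. For UNC0642 against WT, 2 were called, 1 with adjusted p-values, 1 with a fold change of at least 1.5, and 1 to 3 when libraries were left out. The medians of the members moved by less than the spread between replicates in every alternative, and no called value changed sign. Dcx was called in all 8 alternative fits and all 6 fits without 1 library, in both comparisons with WT, with log2 fold changes of -1.13 to -0.83 in Tau and -0.98 to -0.68 with UNC0642 when libraries were left out. Its adjusted p in those fits ran from 0.0045 to 0.185 and from 0.00922 to 0.423. With the replicate block, 1, 1 and 2 members were called in the 3 comparisons, with medians of 0.10, -0.08 and -0.01, and over all genes 1792, 1404 and 1755 against 2003, 1569 and 1932. Over all genes, same-numbered libraries did not deviate together (correlations of -0.034, -0.021 and -0.0033). This gave no sign that the numbers pair the mice. It cannot exclude a pairing, since other differences between the libraries of a group, such as sex in WT, also enter these correlations. Without a filter 2788, 2342 and 2586 genes were called over all genes, and by the DESeq2 Wald test 1322, 1055 and 1397. Precision is limited by 2 mice per group, and the 95% interval of Mapt in Tau against WT ran from 0.994 to 1.38-fold.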
